A study of Mus musculus with 12 samples.

Results

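Autotaxin, the receptors for its product and an enzyme that destroys that product were followed in the white fat of mice lacking C2orf74 and of wild-type mice. Autotaxin, encoded by Enpp2, is a secreted phospholipase that turns lysophosphatidylcholine into lysophosphatidic acid (LPA) outside the cell, and adipocytes are a known source of it. LPA acts on G protein-coupled receptors. Those encoded by Lpar1, Lpar2 and Lpar3 belong to the same family as the sphingosine 1-phosphate receptors, and those encoded by Lpar4, Lpar5 and Lpar6 are closer to the purinergic P2Y receptors. Plpp3 encodes a membrane phosphatase that removes the phosphate from LPA at the cell surface and so ends its signal.

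The genes were Enpp2, every gene with an Lpar symbol and Plpp3, which gave 8 of the 32622 genes measured, 6 of them receptors. The set was chosen by earlier results of these same libraries, with Enpp2 and its differences between genotypes and fat pads in view, so the values of the 8 genes are a description and no p-value is given for them. Of the 8, 6 had been listed by name, and Lpar3 and Lpar5 were added to complete the receptor family.

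RNA-seq covered 4 groups of 3 libraries. They were epididymal white fat (epWAT) of C2orf74 KO mice, epWAT of wild-type (WT) mice, subcutaneous white fat (scWAT) of KO mice and scWAT of WT mice. All 6 mice, the WT ones included, ate a high-fat diet for 12 weeks from 8 weeks of age, and each gave 1 library per depot (KO mice C7, C34 and C695, WT mice C75, C85 and C99). The sources used here do not say how the allele was made, in which strain, or from how many founder lines. Values are FPKM, a read count scaled to gene length and library size, so levels can be compared between genes. Differences are in log2(FPKM + 1), written as KO minus WT or scWAT minus epWAT with their standard error (SE), and these understate the change of genes at low FPKM.

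Depth ran between 15011091 and 18311562 reads per library. The mouse counterpart of the targeted gene, 1700093K21Rik, had 1 read in KO epWAT against 7 in WT epWAT, and 2 reads in KO scWAT against 20 in WT scWAT. Adipocyte markers were abundant in every library, with none of the 12 at 0. A pair of KO libraries stood apart most. KO epWAT C7 held epididymal and sperm transcripts (219.1 FPKM of Crisp1, at most 6.3 FPKM elsewhere), and KO scWAT C695 held B and T cell transcripts (75.8 FPKM of the B cell gene Cd79a, at most 4.6 FPKM elsewhere). Among scWAT libraries, KO scWAT C34 had the highest sum of skeletal muscle markers (287.1 FPKM, 10.4 to 149.1 FPKM in the others). Its sum of progenitor and fibroblast markers was also the highest (2032 FPKM, 580.9 to 1565 FPKM in the other scWAT libraries).

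Enpp2 (ENSMUSG00000022425, minus strand of chr15:54838901-54952892 in GRCm38, the build of all positions given) was at 85.4, 101.6 and 106.0 FPKM in KO epWAT, against 44.9, 47.2 and 51.9 FPKM in WT epWAT. Every KO epWAT library lay above every WT epWAT library, as did 9.6% of tested genes, and the KO mean was 2.04 times the WT mean. In scWAT it was at 117.8, 118.7 and 134.5 FPKM in KO mice, against 110.3, 123.5 and 94.7 FPKM in WT mice. There the genotypes overlapped, and the KO mean was 1.13 times the WT mean. WT epWAT was thus the low group among the 4, and the other 9 libraries were all at 85.4 FPKM or more.

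**Figure D1:**
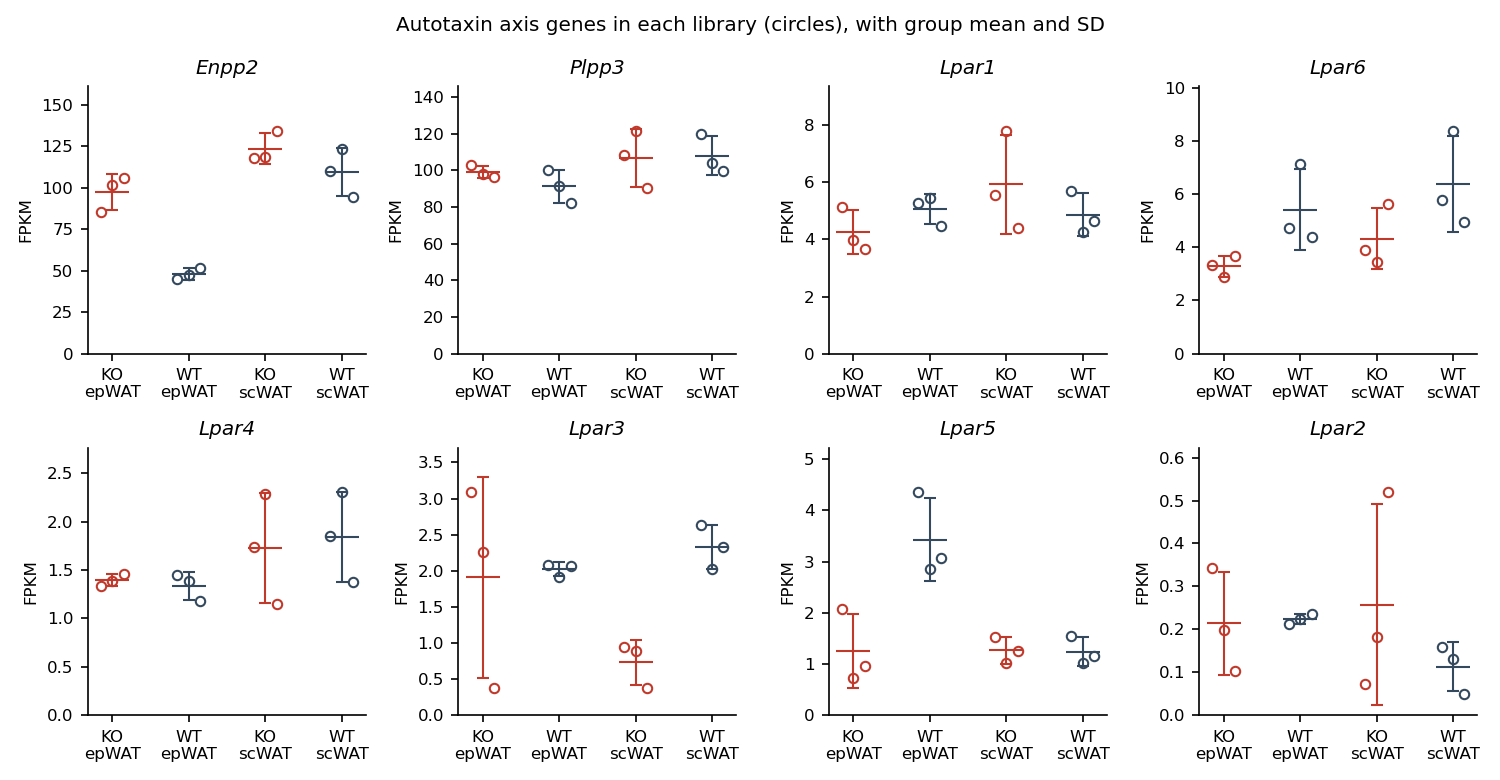
FPKM (linear axes from 0) of the 8 genes in each of the 4 groups; circles are single libraries, horizontal bars the group mean and whiskers 1 SD (n = 3). Enpp2 is at 44.9 to 51.9 FPKM in WT epWAT and at 85.4 FPKM or more in every other library, while Plpp3 lies between 82.1 and 121.7 FPKM in all 12.

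On the log2 scale the Enpp2 difference was 1.01 ± 0.11 (SE, n = 3 each) in epWAT and 0.18 ± 0.12 in scWAT. The epWAT difference was larger in size than that of 96.0% of tested genes. The contrast between depots (KO minus WT in scWAT, less KO minus WT in epWAT) was -0.83 ± 0.16. Within KO mice scWAT exceeded epWAT by 0.34 ± 0.12, with the 3 scWAT libraries above the 3 epWAT libraries, and within WT mice it exceeded epWAT by 1.17 ± 0.11. Ranked among all genes of its library, Enpp2 stood at place 370 to 491 for KO epWAT libraries and 907 to 1100 for WT epWAT libraries, and at 261 to 333 for KO scWAT libraries and 327 to 437 for WT scWAT libraries. Without C7 in KO epWAT and C695 in KO scWAT the contrast between depots was -0.98, and the scWAT minus epWAT difference in KO mice was 0.19. Without C7 alone the epWAT difference was 1.1, and without C695 alone the scWAT difference was 0.12.

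Adipocyte markers were higher in the same KO epWAT libraries. The 12 markers summed to 8855 to 12638 FPKM in the KO epWAT libraries and 5635 to 7452 FPKM in those of WT epWAT, with 11 of 12 higher on average in KO. In scWAT the sums were 11867 to 14193 FPKM in KO and 9869 to 11245 FPKM in WT mice, with 9 of 12 higher on average in KO. The marker that was lower in KO epWAT was Lep (-0.36 ± 0.13). Lep was also lower in KO scWAT (-1.365 ± 0.141, limma adjusted p = 0.0439), as were Cidec (-0.43 ± 0.16) and Adipoq (-0.15 ± 0.11). Lep in scWAT was the only call among these markers between genotypes. Plin1, which coats the lipid droplet, had 406.1, 508.0 and 597.2 FPKM in KO epWAT and 287.2, 317.2 and 337.2 FPKM in WT epWAT. Taken relative to the mean log2 level of the 12 markers, Enpp2 was at -1.57, -1.63 and -1.89 in KO epWAT and at -1.81, -2.02 and -1.92 in WT epWAT. The groups overlapped on that relative scale, where the epWAT difference was 0.22, against 1.01 for Enpp2 itself and 0.79 for the marker mean. The relative values in scWAT were -1.65, -1.59 and -1.53 in KO and -1.45, -1.40 and -1.91 in WT, a difference of -0.004. The part of adipocyte content in the Enpp2 values was not tested beyond these figures. In bulk tissue, fewer cells of a type and less RNA per cell cannot be told apart.

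**Figure D2:**
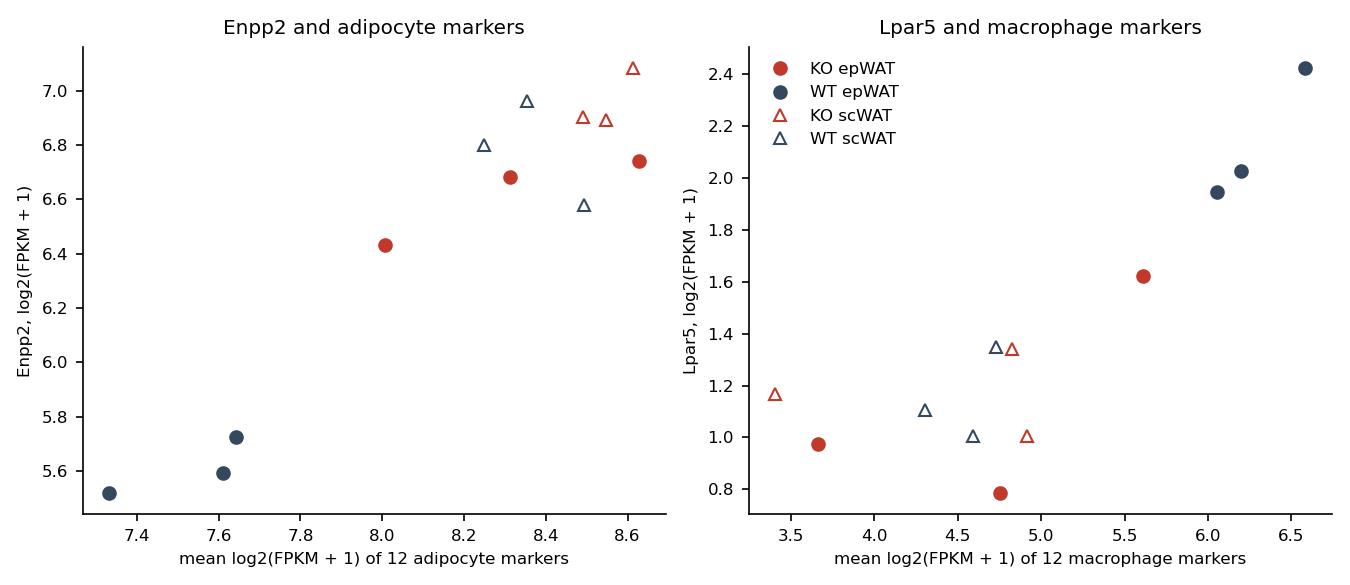
Left, Enpp2 against the mean of 12 adipocyte markers; right, Lpar5 against the mean of 12 macrophage markers, all in log2(FPKM + 1), with 1 point per library. Filled circles are epWAT and open triangles scWAT, KO in red and WT in dark blue; the 3 WT epWAT libraries are lowest for Enpp2 and highest for Lpar5.

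Part of the Enpp2 locus is shared. An antisense gene, Gm26684, overlaps 345 bases (6.0%) of its exons, and the sources used here do not say whether reads were counted by strand. Gm26684 averaged 0.875 ± 0.179 FPKM in KO epWAT and 0.524 ± 0.116 FPKM in WT epWAT, and 1.46 ± 0.16 FPKM in KO scWAT and 0.936 ± 0.314 FPKM in WT scWAT (SD, n = 3 each). Reads of the 2 genes over the shared bases cannot be told apart.

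The genes with the pattern closest to that of Enpp2 across the 12 libraries were sought among 11963 genes by the root mean square difference of centred log2 values, a measure for which 0 is identity and the pattern of Enpp2 itself has a size of 0.536. They were Mccc2 (0.184), a subunit of the mitochondrial carboxylase of leucine breakdown, Art3 (0.190), of the ADP-ribosyltransferase family, Vnn3 (0.193), of the vanin family, Gsn (0.198), the actin-severing protein gelsolin, and Sqor (0.211), the mitochondrial sulfide:quinone oxidoreductase. Gsn averaged 3233 FPKM in KO epWAT and 1942 FPKM in WT epWAT, and 4606 FPKM in KO scWAT and 3451 FPKM in WT scWAT. Art3 averaged 71.0 FPKM in KO epWAT and 35.0 FPKM in WT epWAT, and 80.9 FPKM in KO scWAT and 84.5 FPKM in WT scWAT.

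Each receptor was far below the enzyme in level. Summed over the 6, they gave 12.3 ± 2.64 FPKM in KO epWAT and 17.5 ± 1.87 FPKM in WT epWAT, and 14.2 ± 1.24 FPKM in KO scWAT and 16.8 ± 1.97 FPKM in WT scWAT (SD, n = 3 each). The KO epWAT sums (10.2 to 15.3 FPKM) were all below the WT epWAT sums (15.4 to 19.0 FPKM), though the nearest pair of libraries differed little. In scWAT they overlapped. Enpp2 was 8.28 ± 2.45 times the receptor sum in KO epWAT and 2.78 ± 0.51 times in WT epWAT, and 8.76 ± 1.26 times in KO scWAT and 6.53 ± 0.29 times in WT scWAT.

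**Figure D3:**
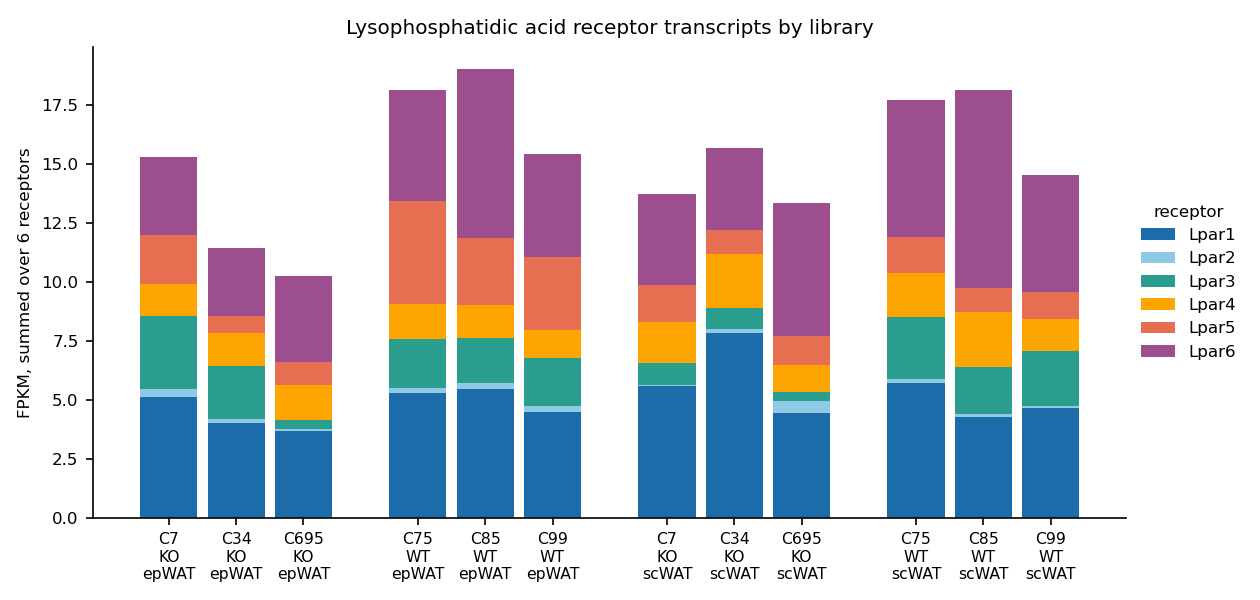
FPKM of the 6 LPA receptors stacked for each of the 12 libraries, KO left of WT within each depot. Lpar1 and Lpar6 fill most of each bar, Lpar2 is a sliver, and the share of Lpar5 is 15.03% to 24.0% in WT epWAT and at most 13.6% elsewhere.

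Lpar1 (ENSMUSG00000038668, minus strand of chr4:58435255-58553898), the most widely studied LPA receptor, was at 5.13, 3.99 and 3.67 FPKM in KO epWAT, against 5.29, 5.47 and 4.48 FPKM in WT epWAT. It was at 5.56, 7.82 and 4.42 FPKM in KO scWAT, against 5.70, 4.25 and 4.66 FPKM in WT scWAT. The genotypes overlapped in both depots, with differences of -0.21 ± 0.13 in epWAT and 0.22 ± 0.19 in scWAT. These were -0.33 without KO epWAT C7 and 0.38 without KO scWAT C695, and the scWAT difference was 0.03 without KO scWAT C34. It took 34.8% ± 1.15 of the receptor sum in KO epWAT and 29.0% ± 0.21 in WT epWAT (SD, n = 3 each), and 41.2% ± 8.45 in KO scWAT and 29.3% ± 5.03 in WT scWAT. Its share in epWAT was higher in all 3 KO libraries than in any WT library, while its own level was not.

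Lpar2 (ENSMUSG00000031861, plus strand of chr8:69822429-69831102) did not pass the filter on low values, which asked for 1 FPKM or more in no fewer than 3 libraries, in any comparison. Its reads were 33, 20 and 9 in KO epWAT against 22, 23 and 25 in WT epWAT, and 7, 18 and 53 in KO scWAT against 15, 14 and 5 in WT scWAT. The 53 reads were in the library with B and T cell transcripts. Pooled over 3 libraries and scaled to depth, the KO to WT ratio was 0.971 in epWAT (exact 95% interval 0.679 to 1.39, counting error only) and 2.34 in scWAT (1.54 to 3.61). Without KO scWAT C695 the scWAT ratio was 1.14 (0.650 to 1.96), so the excess rested on that library. Without KO epWAT C7, which had 33 of the KO epWAT reads, the epWAT ratio was 0.687 (0.429 to 1.07).

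Lpar3 (ENSMUSG00000036832, plus strand of chr3:146220963-146286186) was at 0.941, 0.882 and 0.372 FPKM in KO scWAT, against 2.63, 2.02 and 2.33 FPKM in WT scWAT. All 3 KO scWAT libraries lay below all 3 WT scWAT libraries, as for 13.4% of tested genes, with a difference of -0.95 ± 0.17 and with 39, 37 and 16 reads in KO against 105, 91 and 102 reads in WT. In scWAT Lpar3 passed the filter through the WT libraries alone, which by itself sets the groups apart, so their separation carries no weight as evidence. Without C695, the library with B and T cell transcripts, the scWAT difference was -0.80. In epWAT it was at 3.09, 2.25 and 0.379 FPKM in KO mice, against 2.08, 1.92 and 2.07 FPKM in WT mice. Mouse C695 had the lowest Lpar3 of the KO mice in both depots, and the epWAT difference, -0.20 ± 0.39, became 0.27 without it and -0.51 without C7.

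Lpar4 (ENSMUSG00000049929, plus strand of chrX:106920625-106933900) was at 1.34, 1.39 and 1.46 FPKM in KO epWAT, against 1.45, 1.38 and 1.18 FPKM in WT epWAT. It was at 1.74, 2.29 and 1.15 FPKM in KO scWAT, against 1.85, 2.31 and 1.38 FPKM in WT scWAT. The groups overlapped throughout, with differences of 0.04 ± 0.10 in epWAT and -0.07 ± 0.20 in scWAT. These were 0.06 without KO epWAT C7 and 0.09 without KO scWAT C695, and the scWAT difference was -0.22 without KO scWAT C34.

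Lpar5 (ENSMUSG00000067714, plus strand of chr6:125067920-125082472) was at 2.07, 0.725 and 0.967 FPKM in KO epWAT, against 4.36, 2.85 and 3.07 FPKM in WT epWAT. Every KO epWAT library was below every WT epWAT library, as for 29.2% of tested genes, a difference of -1.0 ± 0.25, with 52, 19 and 22 reads in KO against 117, 76 and 85 reads in WT. Without KO epWAT C7 the difference was -1.25. In scWAT it was at 1.53, 1.01 and 1.25 FPKM in KO mice, against 1.55, 1.01 and 1.15 FPKM in WT mice, a difference of 0.02 ± 0.15. As for Enpp2, the group that stood apart was WT epWAT, but for Lpar5 it was the high group. In WT mice scWAT minus epWAT was -0.98 ± 0.16, and in KO mice 0.04 ± 0.24.

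Lpar6 (ENSMUSG00000033446, plus strand of chr14:73237895-73243294) was at 3.31, 2.87 and 3.65 FPKM in KO epWAT, against 4.73, 7.14 and 4.37 FPKM in WT epWAT. All 3 KO epWAT libraries were below all 3 WT epWAT libraries, again as for 29.2% of tested genes, a difference of -0.56 ± 0.17, which was -0.57 without KO epWAT C7. In scWAT it was at 3.88, 3.46 and 5.62 FPKM in KO mice, against 5.79, 8.38 and 4.93 FPKM in WT mice, where the groups overlapped and the difference was -0.46 ± 0.22, or -0.63 without KO scWAT C695. Mouse C85 had the highest Lpar6 in both depots. The single-exon gene lies within Rb1, which runs on the other strand and overlaps 408 bases (7.6%) of it, over which their reads cannot be told apart unless counted by strand. Rb1 was at 15.4 ± 1.01 FPKM in KO epWAT and 15.1 ± 0.74 FPKM in WT epWAT (SD, n = 3 each), with overlapping groups.

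Macrophage markers were lower in the same KO epWAT libraries. The 12 markers summed to 434.1 to 1380 FPKM in the KO epWAT libraries and 1890 to 2868 FPKM in those of WT epWAT, with 12 of 12 lower on average in KO. In scWAT the sums were 398.1 to 946.9 FPKM in KO and 609.6 to 736.7 FPKM in WT, with 6 of 12 higher on average in KO. Cd68, a macrophage lysosomal protein, had 155.3, 74.8 and 29.7 FPKM in KO epWAT and 400.2, 246.6 and 261.4 FPKM in WT epWAT. The mean of the 12 markers differed by -1.60 in epWAT, against -1.0 for Lpar5 and -0.56 for Lpar6. Their part in the Lpar5 and Lpar6 values was not tested.

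Plpp3 (ENSMUSG00000028517, plus strand of chr4:105157347-105232764) was at 102.7, 98.0 and 96.2 FPKM in KO epWAT, against 100.2, 91.3 and 82.1 FPKM in WT epWAT. It was at 108.3, 121.7 and 90.3 FPKM in KO scWAT, against 120.1, 104.1 and 99.7 FPKM in WT scWAT. The genotypes overlapped in both depots, with differences of 0.12 ± 0.09 in epWAT and -0.02 ± 0.13 in scWAT. They were 0.09 in each without the library that stood apart most, and the scWAT difference was -0.12 without KO scWAT C34. Plpp3 made up 80.5% ± 2.98 of the summed FPKM of Plpp1, Plpp2 and Plpp3, the phosphatases of this family that act on LPA, in KO epWAT and 78.0% ± 1.53 in WT epWAT (SD, n = 3 each), and 84.3% ± 1.2 in KO scWAT and 82.9% ± 1.2 in WT scWAT. The ratio of Enpp2 to Plpp3 was 0.990 ± 0.142 in KO epWAT and 0.532 ± 0.093 in WT epWAT, and 1.18 ± 0.27 in KO scWAT and 1.02 ± 0.15 in WT scWAT. The ratio of the maker to the remover was therefore near 1 in 3 groups and lower in WT epWAT, with KO epWAT (0.831 to 1.10) and WT epWAT (0.448 to 0.632) apart.

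By level, Plpp3 and Enpp2 held the first 2 places in all 4 groups. Their ranges overlapped in KO epWAT, KO scWAT and WT scWAT, and were apart only in WT epWAT, where Plpp3 averaged 91.2 FPKM and Enpp2 48.0 FPKM. Lpar1 and Lpar6 held places 3 and 4 in all 4 groups. Lpar1 had the higher mean in both KO groups and Lpar6 in both WT groups, with overlapping ranges in 3 groups and ranges apart in KO epWAT (Lpar1 3.67 to 5.13 FPKM, Lpar6 2.87 to 3.65 FPKM). Places 5 to 7 went to Lpar3, Lpar4 and Lpar5 in an order that changed between groups, and Lpar2 was last throughout.

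Against the whole table, the members' counts read as follows. Between KO and WT epWAT none of the 7 members that passed the filter was past the threshold of 0.05 on the Benjamini-Hochberg adjusted p, and neither was any of the 12722 genes tested (0%; smallest adjusted p 0.0533). In limma 3795 genes had an unadjusted p under 0.05, and limma-voom on reads recovered from FPKM also called 0. Between KO and WT scWAT 0 of 7 members were called against 0.317% of genes. In the contrast between depots 1 of 7, Enpp2, was called, against 1.03% of genes. With the mouse as a block, 0 genes were called, and without a filter Enpp2 was not called either. With single libraries left out in turn, Enpp2 was called in that contrast only without KO epWAT C7 or without KO scWAT C695. Between scWAT and epWAT 0 of 6 were called in KO mice, against 0.713% of genes, with Enpp2 all above in scWAT, as were 14%. In WT mice 2 of 7, Enpp2 and Lpar5, were called, against 22.4% of genes; Enpp2 was all above in scWAT, as were 15.8% of genes, and Lpar5 all below, as were 27.3%. Because the set was chosen with these contrasts in view, the counts carry no weight as evidence. Median log2 differences over the members that passed were -0.20 in epWAT and -0.02 in scWAT, beside -0.10 and 0.01 over all tested genes.

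The rest of the pathway was described through 8 lists that hold 82 further genes. The lists cover LPA made outside the cell, its breakdown, glycerolipid synthesis inside the cell where LPA is an intermediate, the acyltransferases that use up lysophosphatidylcholine, the other ENPP ectoenzymes, the G proteins of LPA receptors and their effectors, target genes of the SRF and YAP pathways, and the sphingosine 1-phosphate axis. Between KO and WT, 0 of 64 tested genes were called in epWAT and 0 of 64 in scWAT (limma, smallest adjusted p 0.0553 and 0.0890), with 28 and 7 at an unadjusted p under 0.05. Those are shares of 43.8% in epWAT, beside 29.8% of all tested genes, and 10.9% in scWAT, beside 17.0%. Without KO epWAT C7, 15 pathway genes were called in epWAT, in a fit that called 14.3% of all genes, and without any other single library 0 were. With a spread shared over 12 libraries 11 were called in epWAT, and with the mouse as a random block 13. Those fits called 14.3% and 14.6% of all genes. In scWAT the same settings called 1 each, beside 2.14% and 2.22% of all genes. A filter at 5 FPKM and quantile scaling each called 1 in epWAT.

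The genes of smallest p in epWAT came from several steps. Pla1a, a secreted phospholipase that makes 2-acyl lysophospholipids, was at 13.8, 16.7 and 16.9 FPKM in KO epWAT, against 30.9, 27.8 and 27.1 FPKM in WT epWAT, a log2 difference of -0.82 ± 0.10 (limma, adjusted p = 0.0553). Gpat3, which makes LPA inside the cell from glycerol 3-phosphate, was at 18.0, 20.3 and 28.6 FPKM in KO epWAT, against 10.04, 9.12 and 10.2 FPKM in WT epWAT, a difference of 1.09 ± 0.17 (adjusted p = 0.0605). Agpat2, which acylates that LPA to phosphatidic acid, had a difference of 0.51 ± 0.11 (adjusted p = 0.0674). S1pr2, a receptor for sphingosine 1-phosphate, was at 2.27, 1.10 and 0.986 FPKM in KO epWAT, against 7.01, 4.34 and 3.88 FPKM in WT epWAT (-1.31 ± 0.26, adjusted p = 0.0667). All 3 KO libraries lay on 1 side of all 3 WT libraries for each of these 4 genes, which were picked by their p in these same libraries. Of all tested genes, 9.6% were all above and 29.2% all below in KO epWAT. None of the 4 passed the threshold in the main fit. Without KO epWAT C7 all 4 passed, with adjusted p between 0.0247 and 0.0312, and in the other 5 fits that left out a library none did, with adjusted p up to 0.21. Gpat3 and S1pr2 also passed with a spread shared over 12 libraries and with the mouse as a random block. Pla1a passed with a filter at 5 FPKM and Agpat2 with quantile scaling.

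The other genes with the smallest p of their list in epWAT did not pass the threshold in the main fit either. The ectoenzymes Enpp4 and Enpp5, relatives of autotaxin, differed by 0.37 ± 0.12 and 0.39 ± 0.14. Plpp6, a phosphatase of the same superfamily as Plpp3, differed by 0.57 ± 0.13. Lpcat1 and Lpcat3, which reacylate lysophosphatidylcholine, differed by -0.45 ± 0.12 and -0.10 ± 0.07. The inhibitory G protein subunit Gnai2 differed by -0.45 ± 0.12 and the kinase Rock1 by -0.25 ± 0.07. Sgpl1, which cleaves sphingosine 1-phosphate, differed by -0.62 ± 0.17, and Axl, a receptor tyrosine kinase and YAP target, by -0.68 ± 0.18. Axl went against most of its list. Of the 8 SRF and YAP targets tested in epWAT, 6 were higher in KO and 2 lower, with a median of 0.17. Lpcat3 changed sign, to 0.04, under upper-quartile scaling. Plpp6, Gnai2, Rock1 and Sgpl1 passed with a spread shared over 12 libraries and with the mouse as a random block. Without KO epWAT C7, Plpp6, Gnai2, Sgpl1 and Axl passed.

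**Figure D4:**
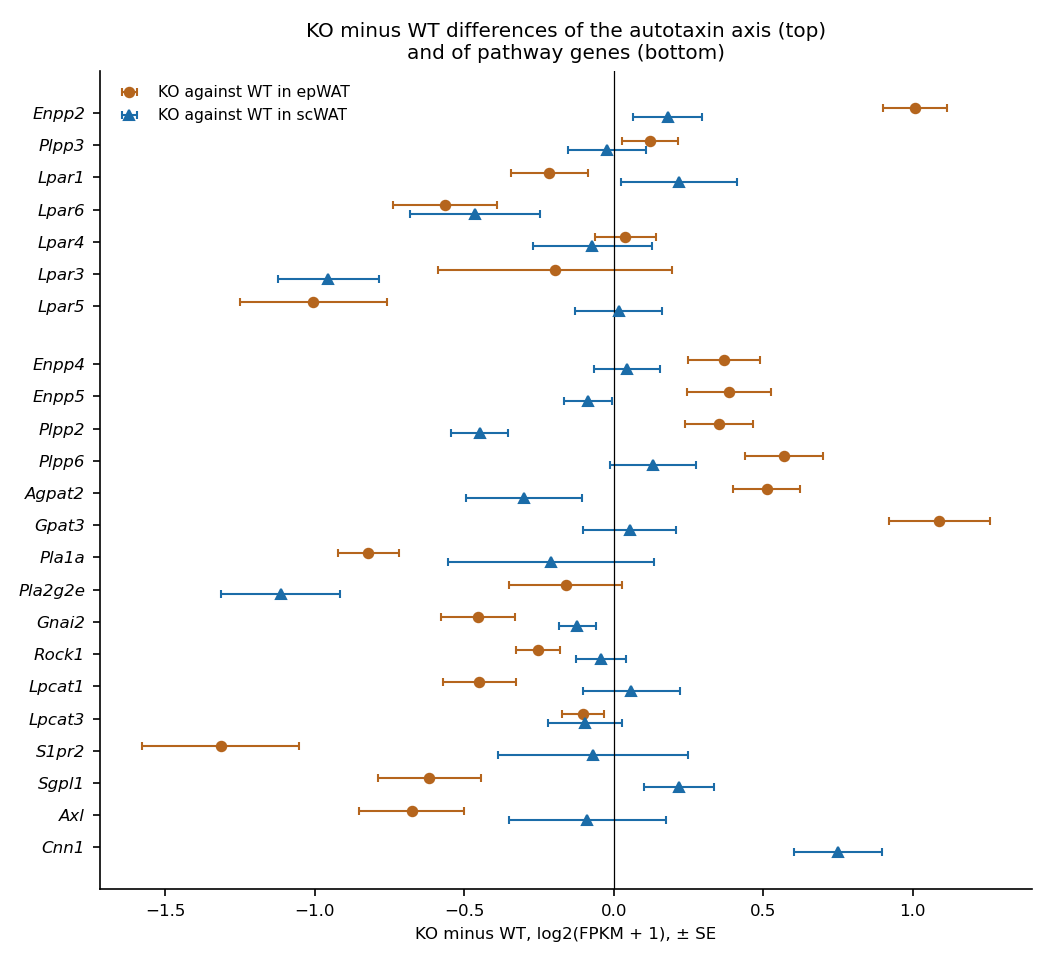
KO minus WT differences in log2(FPKM + 1) with SE (n = 3 each) in epWAT (brown circles) and scWAT (blue triangles). The upper rows are the 7 members that passed the filter and the lower rows 16 pathway genes; Enpp2 and Gpat3 are near 1 in epWAT and near 0 in scWAT, while Lpar3 and Pla2g2e are near -1 in scWAT. Cnn1 passed the filter in scWAT only, through the KO libraries alone, and Lpar3 passed it in scWAT through the WT libraries alone.

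In scWAT the smallest p belonged to Pla2g2e, a secreted phospholipase A2 that releases lysophospholipids, at 6.61, 5.64 and 5.56 FPKM in KO mice against 11.5, 19.5 and 12.1 FPKM in WT mice (-1.11 ± 0.20, limma adjusted p = 0.0890). Its adjusted p was 0.0275 with a spread shared over 12 libraries and 0.0266 with the mouse as a random block. With each of the 6 libraries left out it was 0.087 to 0.264. Cnn1, a smooth muscle SRF target, was at 1.93, 1.31 and 1.26 FPKM in KO scWAT, against 0.609, 0.439 and 0.390 FPKM in WT scWAT. It passed the filter through the KO libraries alone, so its test carries no weight. Of the 9 SRF and YAP targets tested in scWAT, 2 were higher in KO and 7 lower. Cnn1 is also 1 of 9 pericyte and smooth muscle markers, of which 6 were lower on average in KO scWAT, with sums of 297.1 to 422.5 FPKM in KO and 447.6 to 488.8 FPKM in WT. The 3 that were higher on average were Cnn1 and the contractile cell genes Myh11 (0.36 ± 0.09) and Des (0.42 ± 0.26), and none of the 9 passed the threshold. Their part in the Cnn1 value was not tested.

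In the contrast between depots 1 of 66 tested pathway genes passed (1.52%), beside 1.03% of all tested genes. It was Plpp2, a phosphatase of the same family as Plpp3. Plpp2 was at 7.40, 7.03 and 6.47 FPKM in KO scWAT, against 10.3, 8.75 and 10.6 FPKM in WT scWAT, and at 12.1, 13.6 and 10.6 FPKM in KO epWAT, against 8.50, 9.01 and 10.2 FPKM in WT epWAT. The KO libraries were thus all below WT in scWAT, as for 13.4% of tested genes, and all above WT in epWAT, as for 9.6%. The contrast was -0.80 ± 0.15 (limma, adjusted p = 0.0429). With the mouse as a block the adjusted p was 0.0619, and it ranged between 0.0304 and 0.115 when each of the 12 libraries was left out in turn, with 3 of these fits past the threshold.

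Between the depots 24 of 63 tested pathway genes (38.1%) were called in WT mice, 9 higher and 15 lower in scWAT, beside 22.4% of all genes. The count was 8 without WT scWAT C99 and 11 without WT scWAT C85, and 6 genes passed in all 6 such fits. They were Pla2g7, Sgpl1, Gna12, Gna13, Enpp5 and Gpat3. Pla2g7, a secreted phospholipase that yields lysophosphatidylcholine and is made by macrophages, was lower in scWAT, at 5.21, 4.34 and 4.86 FPKM against 18.6, 13.0 and 16.9 FPKM in WT epWAT (-1.55 ± 0.14, adjusted p = 0.00360). Sgpl1 was lower by -0.84 ± 0.11, and Gna12 and Gna13, G protein subunits that act with LPA receptors, by -0.53 ± 0.09 and -0.58 ± 0.10. Gpat3 (0.68 ± 0.13) and Enpp5 (0.46 ± 0.08) were higher in WT scWAT. Pla2g5, another secreted phospholipase A2, is 1 of the 24 but passed the filter through scWAT alone, at 3.04, 2.06 and 2.24 FPKM in WT scWAT against 0.313, 0.473 and 0.797 FPKM in WT epWAT, so its call carries no weight. By list, 4 of 9 tested sphingosine 1-phosphate genes were called, all lower in WT scWAT. Macrophage markers were also lower in WT scWAT than in WT epWAT, 11 of 12 of them past the threshold, and adipocyte markers higher, 9 of 12 past it. Their part in these differences was not tested.

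In KO mice 1 of 66 pathway genes was called between the depots (1.52%), beside 0.713% of all tested genes. Pla2g2e was lower in scWAT, at 6.61, 5.64 and 5.56 FPKM, against 17.1, 12.0 and 15.9 FPKM in KO epWAT (-1.20 ± 0.15, limma adjusted p = 0.0276). With the mouse as a block the adjusted p was 0.0795, and it was 0.0680 to 0.141 with each of the 6 libraries left out.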

How the data were processed

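Each of the 12 deposited files gave FPKM, 1 value per Ensembl gene, made by the authors from total RNA; the unit was inferred from the values. The build was mm9 per the submitters' processing notes. Aligner, counter, annotation and strand setting: not given in the sources used here. Of 32622 identifiers, 32553 matched GENCODE M21 (GRCm38), which gave symbols, lengths and coordinates. FPKM times exon length gave whole reads, within 0.01, in all 12 libraries for 92.4% of genes; Enpp2, Pla1a and Gpam did not, so no reads are given for them. For limma-voom the values of every gene, these included, were rounded to whole reads.

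Genes that reached 1 FPKM in 3 or more libraries were tested by limma on log2(FPKM + 1), threshold 0.05 on the adjusted p over all tested genes. KO was compared with WT in the 6 libraries of each depot, scWAT with epWAT in the 6 of each genotype, and the contrast between depots used all 12. Because the values are FPKM, no count test was the main one. The procedure was tested on simulated data. The members and lists were chosen with earlier results of these data known. Named pathway genes were those called (at most 4 per list between depots, of which those stable to leaving out a library were described) and, per list, the 2 of smallest p between KO and WT. Lipi, Pla2g2a and Enpp7 were not analysed here.

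The same mouse codes mark libraries of both depots and were taken as animals, so the mouse was a block in alternatives. Deviations of the same mouse correlated between depots at -0.03 (C7), 0.17 (C34) and 0.11 (C695) in KO mice, and at 0.36 (C75), 0.32 (C85) and 0.26 (C99) in WT mice. Alternatives were 2 filters, quantile and upper-quartile scaling, pseudocounts of 0.1 and 5, limma-voom on recovered reads, a shared spread, the block and leaving out libraries. Tools were Python 3.11.15 with numpy 2.4.6, pandas 2.3.3, matplotlib 3.10.9 and scipy 1.17.1, and R 4.3.3 with statmod 1.5.0 and limma 3.58.1. The labels do not say how the mice were related, so the errors cover the spread between these libraries.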

Additional observations from a re-analysis of the deposited data

Results flagged for a closer look

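Plpp2 differed between the depots in its KO minus WT difference, by -0.80 on the log2 scale, and passed the test of that difference (limma, adjusted p = 0.0429). The call was lost with the mouse as a block (adjusted p = 0.0619) and in 9 of the 12 fits that left out a library (adjusted p between 0.0304 and 0.115 over the 12). Plpp2 lay with KO below WT in every scWAT library and above WT in every epWAT library. Arhgef1, a signalling gene downstream of LPA receptors, had the opposite arrangement, with a contrast of 0.80. It was at 20.6, 20.9 and 41.5 FPKM in KO scWAT against 19.4, 20.2 and 19.0 FPKM in WT scWAT, and at 20.5, 20.3 and 14.3 FPKM in KO epWAT against 25.9, 24.8 and 21.9 FPKM in WT epWAT. Of all tested genes, 29.2% were likewise all below in KO epWAT, and the share all above in KO scWAT was not computed. The test of that contrast did not pass (limma, adjusted p = 0.172), and the highest value was in KO scWAT C695, the library with B and T cell transcripts.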

How the results depend on the processing

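Of 34 member differences, 24 kept their sign under every alternative, among them Enpp2 in all 5 comparisons, and 500 of 525 recomputed values moved by less than 1 SD between replicates. The Enpp2 groups did not overlap in epWAT or between the depots of either genotype. There, leaving out a library or changing the pseudocount cannot change the sign, so the kept sign carries no weight as evidence. The values that moved by more than 1 SD, in log2, were as follows. Enpp2 in epWAT was 1.15 with upper-quartile scaling, which moved the median of all genes from -0.10 to 0.02, and its contrast between depots was -0.98 with that scaling and -0.98 without both KO libraries that stood apart; the KO depot difference without them was 0.19. In epWAT Lpar4 was 0.12 and Plpp3 0.27 with upper-quartile scaling, Lpar4 was 0.18 with quantile scaling, and Lpar5 was -1.48 and -0.43 with pseudocounts of 0.1 and 5 and -1.55 with limma-voom. In scWAT Lpar3 was -1.62, -0.36 and -1.76 with these 3 settings. In the contrast Lpar5 was 1.51, 0.44 and 1.59 with them, Lpar3 -0.31 with a pseudocount of 5 and -1.26 with limma-voom, Plpp3 -0.29 with upper-quartile scaling, and Lpar1 and Lpar3 were 0.71 and -0.28 without both libraries. Leaving out single libraries, the Lpar3 contrast ran between -1.23 and -0.44. Between WT depots Lpar5 was -1.40, -0.43 and -1.46. The pseudocount acts most on genes near 1 FPKM.

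Counts of genes called moved far more. In epWAT (0) they were 39 with a filter at 5 FPKM (0.521% of tested genes), 29 with a pseudocount of 5 (0.228%) and 90 with quantile scaling (0.707%). They were 1820 with a spread shared over 12 libraries (14.3%) and 1856 with the mouse as a random block (14.6%). Without single libraries they were 0 to 1781, the highest (14.3%) without KO epWAT C7. Enpp2 was among those called with the 5 settings above and without KO epWAT C7. Lpar5 was called with the shared spread, the random block and without C7. The members were chosen with earlier results of these data known, so these calls carry no weight as evidence. In scWAT (40) they were 11 without a filter, 72 with a filter at 5, 23 with a pseudocount of 5, 22 with quantile scaling, 270 with a shared spread, 280 with the random block and 0 to 142 without single libraries. In the contrast (139) they were 23 without a filter, 211 with upper-quartile scaling, 0 with the block, 1477 without both libraries and 0 to 928 without single libraries. Between KO depots (90) they were 44, 55, 12 and 6 without a filter, with a filter at 5, with the block and without both libraries, and 7 to 36 without single libraries. Between WT depots (2852) they were 1992 without a filter, 3806 with the mouse as a block (29.8%) and 1272 to 2307 without single libraries. Among 42 pathway differences named or called, Lpcat3 in epWAT changed sign (0.04 with upper-quartile scaling), and 19 of the 26 called lost the call in some alternative. Some of those not called gained a call in an alternative, as given above. The cause was not tested.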
